A study of Mus musculus with 91 samples.

Results

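The REV-ERB and ROR nuclear receptors form the stabilising arm of the circadian clock, and 4 of the 14355 genes counted in these libraries are described as that family. They were selected by Ensembl identifier: Nr1d1 (ENSMUSG00000020889), which encodes REV-ERBα, Nr1d2 (ENSMUSG00000021775), which encodes REV-ERBβ, Rora (ENSMUSG00000032238), which encodes RORα, and Rorb (ENSMUSG00000036192), which encodes RORβ. Both REV-ERB genes were called rhythmic in D1 and in D2 neurons of the mouse nucleus accumbens, in tests that called 0.495% and 2.94% of all genes. The fitted peak of Nr1d1 lay in the second part of the light phase and that of Nr1d2 a few hours later. The calls for Nr1d2 in D1 neurons and for Nr1d1 in D2 neurons were lost in some alternative fits. Neither ROR gene passed the test for a rhythm in either cell type. Rorb was lower in D1 than in D2 neurons in a test that called 19.3% of all genes, but not in every replicate letter.

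REV-ERB proteins bind heme and repress transcription by recruiting the NCoR corepressor and the histone deacetylase HDAC3. ROR proteins activate transcription from the same response elements, so the 2 subfamilies oppose each other on shared targets, of which Bmal1 is the best known. The REV-ERB genes are themselves activated by the CLOCK and BMAL1 proteins through E-boxes, which closes a feedback loop. In the dopamine system REV-ERBα is known to repress tyrosine hydroxylase in the midbrain, which projects to the nucleus accumbens.

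The study measured ribosome-associated mRNA of D1 and D2 neurons, the principal projection neurons of the nucleus accumbens, which are named for the dopamine receptor they carry. D1 neurons came from Drd1-Cre mice and D2 neurons from A2a-Cre mice, both crossed to RiboTag mice, in which Cre switches on the tagged ribosomal protein HA-Rpl22 that serves as the handle for the pull-down. Male and female mice over 10 weeks old were kept in 12 h of light and 12 h of dark, and tissue was taken at Zeitgeber time (ZT, hours after lights on) 2, 6, 10, 14, 18 and 22. All groups carried the tag and a Cre driver, tissue of 2 mice was pooled for each library, and the cell type is defined by the Cre driver, so a difference between the cell types cannot be told apart from one between the mouse lines. The D1 libraries numbered 22 from males and 23 from females, and the D2 libraries 23 from each sex, in 24 groups of 3 or 4 libraries that differ in a letter from A to E. Lower counts of a transcript can reflect less RNA per cell or a smaller share of cells contributing to the pull-down, and these cannot be told apart here. The labelled cell types could not be checked against marker genes, because no table used here pairs the identifiers with names, and RNA from other cells was not tested.

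Total counts per library ranged from 8556069 to 19297403 in D1 and from 6872165 to 24665262 in D2 neurons. 3 libraries of male D1 neurons stood apart, with 789 (ZT10, letter B), 722 (ZT22, letter B) and 205 (ZT18, letter D) genes at 0, against 3 or fewer in every other library. The tests that use D1 libraries are therefore given with and without them, while the CPM means include every library. Counts of the 4 receptors were never close to 0, with 184 to 1697 reads for Nr1d1, 779 to 3996 for Nr1d2, 557 to 1832 for Rora and 101 to 1322 for Rorb in single libraries, and all 4 entered every test.

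In the RefSeq annotation of GRCm38.p6, Nr1d1 lies at chr11:98767932-98775377 on the minus strand, Nr1d2 at chr14:18204056-18239106 on the minus strand, Rora at chr9:68653404-69388246 on the plus strand and Rorb at chr19:18930609-19111196 on the minus strand. Nr1d1 shares 1075 bases at its 3′ end with Thra, the thyroid hormone receptor α gene, a partner from which REV-ERB takes its name because the genes run in opposite directions. Rora contains or touches 5 annotated long noncoding RNAs. Whether the authors counted reads by strand was not given in the sources used here, so reads of such shared stretches cannot be told apart. The overlap makes the Nr1d1 level in particular uncertain. Nr1d2 and Rorb overlap no other annotated gene.

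The promoters of the rhythmic genes Nr1d1 and Nr1d2 are shown beside that of Rora, which was not called rhythmic. Each is 300 bases from RefSeq (GRCm38.p6), 250 before the start of transcription and 50 after it, written 5′ to 3′ on the strand of the gene. They cover chr11:98775328-98775627 (minus strand), chr14:18239057-18239356 (minus strand) and chr9:68653536-68653835 (plus strand). Capitals mark matches on either strand to the E-box CACGTG, the E′-box CACGTT, the nuclear receptor core AGGTCA or the D-box TTANGTAA.
Nr1d1: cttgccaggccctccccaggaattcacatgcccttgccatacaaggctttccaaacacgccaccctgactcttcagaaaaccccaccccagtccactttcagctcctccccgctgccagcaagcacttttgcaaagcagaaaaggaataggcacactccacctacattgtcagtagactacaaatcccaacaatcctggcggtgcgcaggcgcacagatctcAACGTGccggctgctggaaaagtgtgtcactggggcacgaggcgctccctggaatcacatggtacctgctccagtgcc
Nr1d2: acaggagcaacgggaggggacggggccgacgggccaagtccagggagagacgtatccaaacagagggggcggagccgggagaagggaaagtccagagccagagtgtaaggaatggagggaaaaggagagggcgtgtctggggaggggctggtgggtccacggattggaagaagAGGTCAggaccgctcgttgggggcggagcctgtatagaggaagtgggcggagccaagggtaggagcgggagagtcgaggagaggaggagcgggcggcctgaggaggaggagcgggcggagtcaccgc
Rora: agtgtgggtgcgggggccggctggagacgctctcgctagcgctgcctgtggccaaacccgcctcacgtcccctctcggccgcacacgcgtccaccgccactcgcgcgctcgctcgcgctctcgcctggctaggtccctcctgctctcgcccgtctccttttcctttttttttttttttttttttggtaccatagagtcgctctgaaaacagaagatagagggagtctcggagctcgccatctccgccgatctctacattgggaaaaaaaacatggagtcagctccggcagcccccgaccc
The Nr1d1 window holds 1 E′-box, read on the opposite strand 28 bases before the start, and the Nr1d2 window holds 1 receptor core, 77 bases before the start. The Rora window holds no match. It lies inside the annotated gene, which begins upstream of the window at chr9:68653404, and the sequence before that upstream end was not searched. Of the Rorb starts in the table, the first has no match and the second has an E′-box and a D-box. Among 32851 mouse promoters of this length, 4.68% hold the E′-box, 16.3% the receptor core, 7.15% the E-box and 2.32% the D-box. The G and C content was 56.3% for Nr1d1, 65.7% for Nr1d2, 60.3% for Rora, and 63.7% and 41.0% for the first and second Rorb start, against a median of 52.7% over these promoters.

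Levels are given in CPM, a count scaled to the library's TMM-adjusted total. CPM is not adjusted for transcript length, so the 4 genes are not ranked against each other. Over the whole day Nr1d1 averaged 47.9 ± 11.3 CPM over the 45 D1 libraries and 51.6 ± 15.1 CPM over the 46 D2 libraries (SD). Nr1d2 averaged 148.2 ± 18.7 and 148.6 ± 19.3 CPM in D1 and D2 neurons, Rora 71.0 ± 6.73 and 74.5 ± 5.60 CPM, and Rorb 30.8 ± 7.40 and 37.2 ± 9.89 CPM.

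Nr1d1, the core repressor of the loop, was highest around ZT6 and ZT10 and lowest around ZT22 in both cell types. In D1 neurons the mean level was 48.9 ± 6.24 CPM at ZT2, 57.9 ± 6.91 at ZT6, 55.5 ± 8.73 at ZT10, 49.2 ± 10.5 at ZT14, 38.2 ± 6.37 at ZT18 and 35.7 ± 8.97 at ZT22 (SD, n = 6 to 8). At ZT6 the libraries of males (letters A to D) read 47.4, 60.9, 53.6 and 62.9 CPM and those of females 56.0, 70.5, 55.2 and 56.7 CPM. At ZT22 the males read 41.4, 16.1, 33.9 and 36.0 CPM and the females (A, B, C and E) 40.6, 46.1, 33.4 and 37.7 CPM. All 8 libraries at ZT6 lay above all 8 at ZT22, and the value of 16.1 CPM belongs to a library that stands apart. Ordered by level, the times ran ZT6, ZT10, ZT14, ZT2, ZT18 and ZT22, and only the step between ZT2 and ZT18 exceeded the SD of both neighbours.

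A rhythm was tested in each cell type with a 24 h cosine curve, and its amplitude is the height of the peak over the mean on the log2 scale. Of the 4 receptors, 2 were rhythmic in D1 neurons, where 71 of 14355 genes (0.495%) were called. Nr1d1 had an amplitude of 0.36 ± 0.058 (SE), a fitted peak-to-trough ratio of 1.64, a peak at ZT 8.05 ± 0.62 h and an adjusted p of 0.00124 in edgeR's quasi-likelihood test. Without the 3 libraries that stand apart the amplitude was 0.30, the peak ZT 7.88 and the adjusted p 0.00166. Only 1.23% of all genes had a larger fitted amplitude in D1 neurons than Nr1d1.

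In D2 neurons Nr1d1 averaged 45.9 ± 7.58 CPM at ZT2, 58.5 ± 15.8 at ZT6, 60.6 ± 19.3 at ZT10, 57.6 ± 16.0 at ZT14, 45.6 ± 10.5 at ZT18 and 41.3 ± 9.60 at ZT22 (SD, n = 7 or 8). At ZT10 the males (letters A to D) read 77.1, 86.7, 47.0 and 50.2 CPM and the females 83.1, 58.8, 34.9 and 47.1 CPM. At ZT22 the males read 52.5, 44.3, 28.0 and 40.2 CPM and the females 53.1, 47.4, 33.0 and 31.9 CPM. The groups overlapped, with 4 of 8 libraries at ZT10 above all 8 at ZT22, but within each letter and sex the ZT10 library was above the ZT22 library. No step between neighbours in the order of levels exceeded the SD of both.

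Of the 4 receptors, 2 were rhythmic in D2 neurons as well, where 2.94% of all genes were called. The Nr1d1 amplitude in D2 neurons was 0.30 ± 0.072 (SE), with a peak at ZT 9.90 ± 0.94 h and an adjusted p of 0.0325 in edgeR. With the replicate letter as a block, which called 22.3% of all genes, the amplitude was 0.29 and the adjusted p 9.14e-09. Without the block the call was lost whichever letter was left out, while the amplitude stayed close to that of all letters. Leaving out A, B, C or D in turn gave amplitudes of 0.27, 0.28, 0.32 and 0.32 and adjusted p-values of 0.0586, 0.317, 0.0884 and 0.142. The call was also lost with time as a factor of 6 levels in place of the cosine (adjusted p 0.535 in edgeR).

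**Figure D1:**
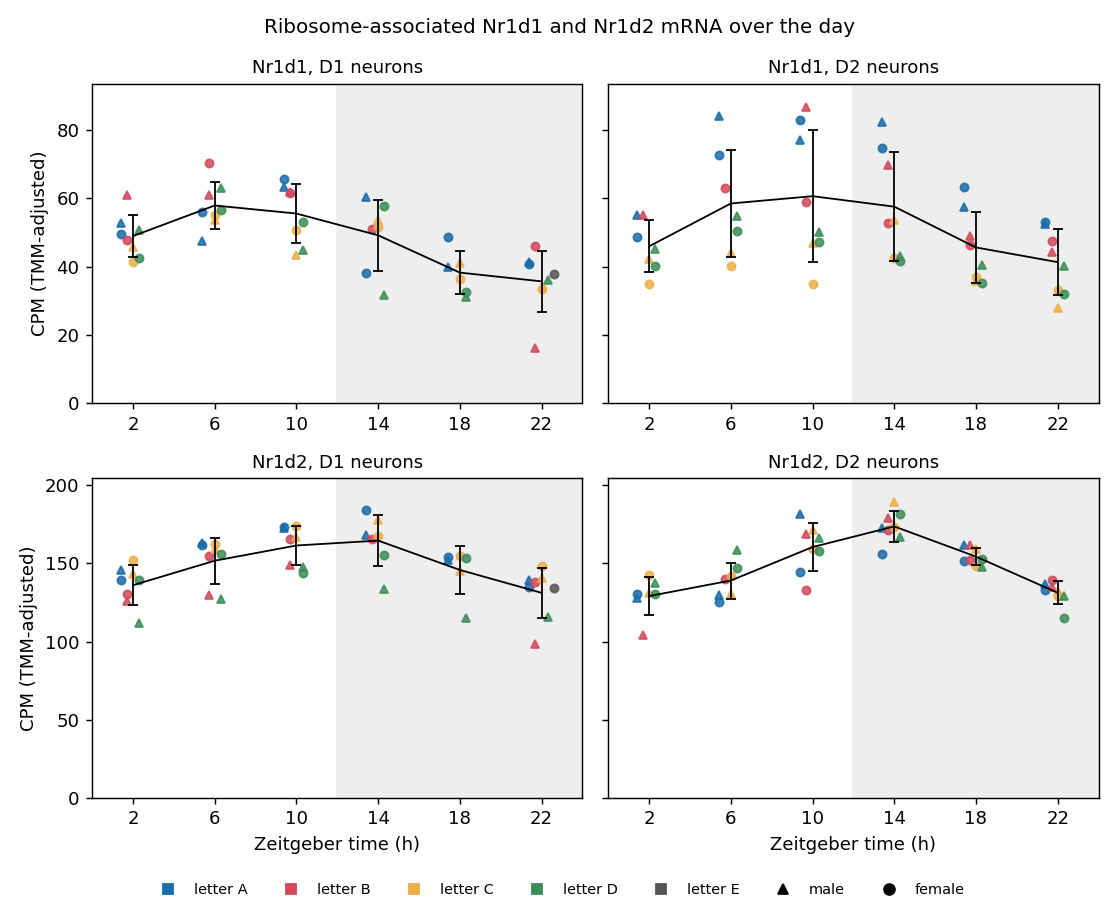
CPM of Nr1d1 (top) and Nr1d2 (bottom) in D1 (left) and D2 neurons (right) against Zeitgeber time in hours, with 1 point per library coloured by letter (triangles male, circles female), the mean as a line, SD as bars and the dark phase shaded. Nr1d1 means were highest at ZT6 in D1 and ZT10 in D2 neurons, Nr1d2 means at ZT14 in both, and Nr1d1 averages highest in the D2 libraries of letter A (67.0 CPM).

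Nr1d2, the paralog that shares targets with Nr1d1, rose later. Its mean level in D1 neurons was 136.0 ± 12.8 CPM at ZT2, 151.7 ± 14.6 at ZT6, 161.4 ± 12.7 at ZT10, 164.6 ± 16.5 at ZT14, 145.8 ± 15.4 at ZT18 and 131.1 ± 16.1 at ZT22 (SD, n = 6 to 8). At ZT14 the males (letters A, C and D) read 168.0, 177.9 and 133.5 CPM and the females (A to D) 184.4, 165.5, 167.5 and 155.1 CPM. At ZT22 the males (A to D) read 139.1, 98.5, 140.7 and 115.9 CPM and the females (A, B, C and E) 134.6, 138.0, 148.0 and 134.3 CPM. The groups overlapped through the male library of letter D at ZT14, and 6 of 7 libraries at ZT14 lay above all 8 at ZT22.

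The Nr1d2 amplitude in D1 neurons was 0.17 ± 0.030 (SE), a peak-to-trough ratio of 1.26, with a peak at ZT 11.4 ± 0.73 h and an adjusted p of 0.00654 in edgeR. Omitting the libraries that stand apart gave 0.16 (peak ZT 12.0, adjusted p 0.00222). The amplitude was 0.16 without letter A, 0.15 without B and 0.18 without C, and the call was lost each time (adjusted p 0.127, 0.0510 and 0.0977). It was lost as well with time as a factor of 6 levels in place of the cosine (adjusted p 0.219 in edgeR).

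In D2 neurons Nr1d2 was the receptor with the lowest p for a rhythm. The mean level was 129.1 ± 12.0 CPM at ZT2, 139.0 ± 11.5 at ZT6, 160.4 ± 15.4 at ZT10, 173.6 ± 10.0 at ZT14, 154.3 ± 5.67 at ZT18 and 131.2 ± 7.39 at ZT22 (SD, n = 7 or 8). At ZT14 the males (letters A to D) read 172.3, 178.8, 189.2 and 166.6 CPM and the females 155.9, 171.5, 173.4 and 181.4 CPM. At ZT2 the males read 127.7, 104.5, 130.7 and 137.4 CPM and the females (A, C and D) 130.4, 142.5 and 130.3 CPM. Every library at ZT14 was above every library at ZT2. In the order of levels, the step between ZT18 and ZT6 exceeded the SD of both neighbours.

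The Nr1d2 amplitude in D2 neurons was 0.22 ± 0.023 (SE), with a peak at ZT 13.3 ± 0.40 h and an adjusted p of 9.34e-08, the 3rd lowest p of all genes. The call held under each of the 15 alternatives tried, leaving out a letter included, with amplitudes between 0.21 and 0.22. By size of amplitude Nr1d2 was less exceptional, since 5.34% of all genes had a larger one in D2 neurons.

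The REV-ERB genes peaked in the same order throughout. Nr1d2 followed Nr1d1 by 3.40 h in D1 and 3.41 h in D2 neurons, and by 3.30 h to 3.52 h in the fits of single sexes. Within single letters the delay was 2.74, 3.30, 1.85 and 4.26 h for A to D in D1 neurons and 3.47, 5.28, 2.71 and 3.89 h in D2 neurons. The order was thus the same in each of the 8 sets, which share no library. The sets are not fully independent, since same-letter libraries correlated across cell types in their deviations from group means (median r 0.44). No SE was calculated for the delays, and the SE of single-letter peaks reached 1.39 h. The D1 fits of letters B and D include the libraries that stand apart, and no single-letter fit was made without them. Over the 24 group means, log2 levels of the pair correlated with r = 0.57, a description of means that share letters and time points.

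**Figure D2:**
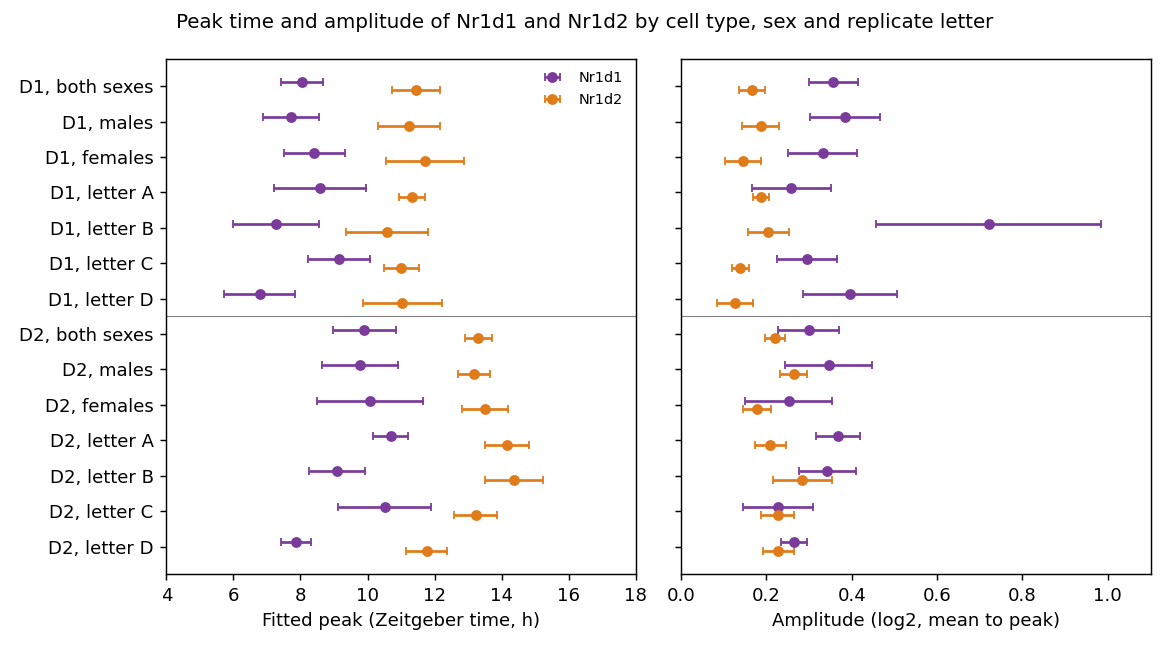
Fitted peak times in hours of ZT (left) and log2 amplitudes (right) with SE bars for Nr1d1 and Nr1d2, by cell type, sex and letter. In the fits that use all letters, Nr1d1 peaks fall between ZT 7.73 and 10.1 and Nr1d2 peaks between ZT 11.2 and 13.5. In these fits D1 neurons are earlier than D2 neurons for both genes. In single letters Nr1d1 peaks run from ZT 6.78 to 10.7 and Nr1d2 peaks from ZT 10.6 to 14.4. The D1 fits of letters B and D include the libraries that stand apart.

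Whether the rhythms differ between the cell types was tested directly. The fitted peaks of D1 neurons preceded those of D2 neurons, with a difference (D1 minus D2) of -1.86 ± 1.13 h (SE) for Nr1d1, whose 95% interval ran from -4.06 to 0.35 h. For Nr1d2 the difference was -1.86 ± 0.83 h (SE), with an interval from -3.49 to -0.23 h. Omitting the 3 libraries that stand apart moved the D1 peaks to ZT 7.88 for Nr1d1 and ZT 12.0 for Nr1d2. The D2 peaks were ZT 9.90 and ZT 13.3, and no interval was calculated for that comparison. Both intervals take the cell types as independent, although 74.7% of same-letter pairs across them had deviations from group means that correlated above 0.1. The joint test of amplitude and phase called 0.0139% of all genes and 0 of the 4 receptors. An unadjusted p under 0.05 was reached by 1 of the 4 receptors and by 1215 of all 14355 genes. The adjusted p was 0.729 for Nr1d1 and 0.472 for Nr1d2 (unadjusted 0.0207) in edgeR. Without the 3 libraries that stand apart the values were 0.904 and 0.626. DESeq2 and limma also called 0 of the 4. Giving each cell type its own letter blocks, a fit added after the data were seen, made Nr1d2 pass (adjusted p 0.0355 in edgeR). The share of all genes that this added fit called is not given here, so the pass cannot be set against it. A difference in Nr1d2 rhythm thus depended on the fit, and the tests do not show that the cell types share 1 rhythm.

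Rhythms were also fitted in each sex. In D2 neurons Nr1d2 was rhythmic in males (amplitude 0.26 ± 0.032, SE, adjusted p 1.20e-05, with 0.237% of genes called) and in females (0.18 ± 0.034, SE, adjusted p 0.0141, with 0.495% called). The female call was lost without letter A, C or D (amplitudes 0.19, 0.18 and 0.15; adjusted p 0.116, 0.240 and 0.154). That call held in 10 of 14 alternatives. Nr1d1 amplitudes in D2 neurons were 0.35 ± 0.10 in males and 0.25 ± 0.10 in females (SE), and neither passed (adjusted p 0.321 and 0.577). With the letter as a block, which called 9.11% of genes in males and 12.5% in females, both passed (0.35 and 0.23; adjusted p 1.99e-06 and 0.00104).

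In D1 neurons no receptor was called rhythmic in a single sex by the edgeR fit of the D1 libraries without a block or covariate, where 0.0418% of genes were called in males and 0.0279% in females. Nr1d1 amplitudes were 0.38 ± 0.082 in males and 0.33 ± 0.081 in females (SE; adjusted p 0.101 and 0.528, unadjusted 0.000198 and 0.000771). Nr1d2 amplitudes were 0.19 ± 0.043 in males and 0.15 ± 0.042 in females (SE; adjusted p 0.169 and 1.00, unadjusted 0.000435 and 0.00530). DESeq2 called both genes in males, among 41 of 14353 genes, as did edgeR with library size as a covariate, among 51 of 14355. Voom in limma with quality weights called both in females, where it called 2524 of 14355 genes. Without the 3 libraries that stand apart, all of them male, the amplitudes in males were 0.27 for Nr1d1 and 0.17 for Nr1d2 (adjusted p 0.348 and 0.174). In the same refit, where the spread is shared by both sexes, those in females were 0.33 and 0.15 (adjusted p 0.0647 and 0.224).

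The difference in rhythm between the sexes was called for 0 of the 4 receptors and for 0% of all genes in either cell type by edgeR without a block, with 226 genes in D1 and 389 in D2 neurons at an unadjusted p under 0.05. With the letter as a block in D2 neurons edgeR called 3 genes (0.0209%), none of them a receptor. Over all genes, DESeq2 found 0 such genes in D1 and 2 in D2 neurons. Voom weighting in limma found 2885 in D1 and 3 in D2 neurons, and no receptor was among any of these. For Nr1d1 the male minus female rhythm had an amplitude of 0.082 in D1 (95% interval up to 0.32; 0.11 without the 3 libraries) and 0.097 in D2 neurons (up to 0.39). For Nr1d2 it was 0.046 in D1 (up to 0.17; 0.031 without the 3 libraries) and 0.088 in D2 neurons (up to 0.18).

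Rora, a widely expressed ROR best known from cerebellar Purkinje cells, varied little over the day. Its mean lay between 69.4 ± 5.92 CPM (ZT22) and 73.7 ± 7.15 CPM (ZT10) in D1 neurons, and between 73.0 ± 4.02 CPM (ZT2) and 76.3 ± 8.42 CPM (ZT10) in D2 neurons (SD, n = 7 or 8). Single libraries ranged from 57.1 to 87.5 CPM in D1 and from 64.3 to 88.7 CPM in D2 neurons, and no step between neighbouring times exceeded the SD of both. The fitted amplitude was 0.030 in D1 and 0.012 in D2 neurons, and 92.1% and 97.5% of all genes had a larger one. The adjusted p was 0.796 in D1 and 1.00 in D2 neurons in edgeR. The 95% intervals, which are only approximate at amplitudes this close to their SE, ended at 0.089 and 0.062. Both ends were under the fitted amplitude of either REV-ERB gene in the same cell type. Leaving out the 3 libraries gave 0.049 in D1 neurons (adjusted p 0.602).

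Rorb, a ROR known in the brain from sensory cortex, retina and the circadian pacemaker, varied more between libraries than over the day. Its mean lay between 28.5 ± 8.05 CPM (ZT2) and 32.6 ± 7.43 CPM (ZT14) in D1 neurons, and between 33.5 ± 6.35 CPM (ZT10) and 40.6 ± 16.0 CPM (ZT6) in D2 neurons (SD, n = 7 or 8). Single libraries ranged from 13.2 to 48.7 CPM in D1 and from 21.9 to 75.2 CPM in D2 neurons. The lowest, 13.2 CPM, is the male ZT18 library of letter D, which stands apart. The amplitude was 0.093 in D1 and 0.098 in D2 neurons (adjusted p 0.723 and 0.925 in edgeR), and the intervals reached 0.24 in each. A Rorb rhythm as large as the fitted one of Nr1d2 lies within these intervals. Leaving out the 3 libraries gave 0.13 in D1 neurons (adjusted p 0.542).

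**Figure D3:**
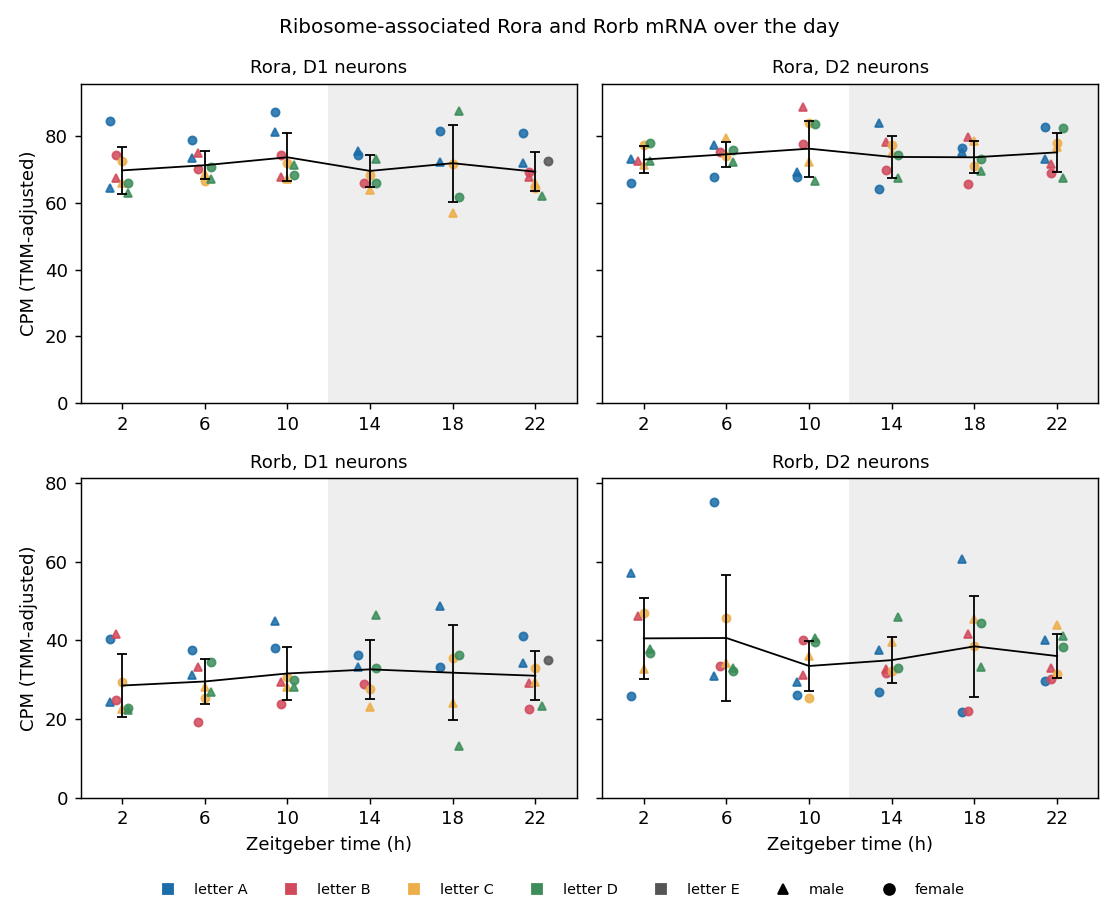
CPM of Rora (top) and Rorb (bottom) in D1 (left) and D2 neurons (right) against Zeitgeber time in hours, with 1 point per library coloured by letter (triangles male, circles female), the mean as a line, SD as bars and the dark phase shaded. Rora means stay between 69.4 and 76.3 CPM, and the widest spread is that of Rorb in D2 neurons at ZT6, where 1 library read 75.2 CPM.

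Rorb in D2 neurons showed the largest fitted sex difference in rhythm among the receptors. At ZT18 the males (letters A to D) read 60.6, 41.6, 45.4 and 33.3 CPM and the females 21.9, 22.1, 38.7 and 44.4 CPM. At ZT6 the males (A, C and D) read 30.9, 34.2 and 32.9 CPM and the females (A to D) 75.2, 33.4, 45.6 and 32.1 CPM. The sexes overlapped at both times, and the widest gaps came from letter A. The fitted peaks were ZT 20.3 ± 1.89 h in males and ZT 4.88 ± 1.48 h in females (SE), with amplitudes of 0.19 and 0.25. Rorb was called rhythmic in neither sex by edgeR (unadjusted p 0.158 in males and 0.0383 in females). The male minus female rhythm had an amplitude of 0.40 ± 0.14 (SE), with an unadjusted p of 0.0187 and an adjusted p of 1.00, and with the letter as a block the adjusted p was 0.204. The difference did not pass, and 1.83% of all genes had a larger one. Without letter A its amplitude was 0.20 (unadjusted p 0.258).

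**Figure D4:**
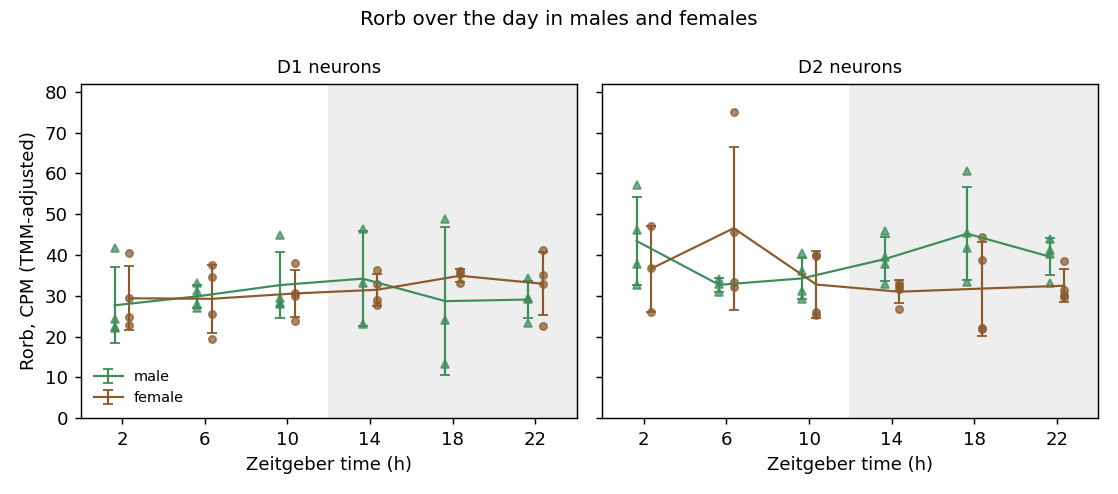
CPM of Rorb in male and female libraries against Zeitgeber time in hours, by cell type, with 1 point per library, the mean of each sex as a line and SD as bars. In D2 neurons the male mean exceeds the female mean at ZT18 and the female mean exceeds the male mean at ZT6, where 1 female library read 75.2 CPM.

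Rorb was the receptor whose overall level differed between the cell types. The difference of the fitted daily means, D1 minus D2, was -0.26 ± 0.072 (SE) on the log2 scale, with an adjusted p of 0.00430 in edgeR. This test called 19.3% of all genes, 9.86% being lower in D1 neurons, and 1 of the 4 receptors. Omitting the D1 libraries that stand apart gave -0.22 (adjusted p 0.0143). It did not hold in every letter: the difference of mean log2 CPM was 0.030 for letter A and -0.29, -0.41 and -0.46 for B, C and D. Without letter C it was -0.19 and without letter D -0.20, and the call was lost (adjusted p 0.179 and 0.102). Letter A in D1 neurons averaged 36.9 ± 6.46 CPM, above the 28.1 to 28.8 CPM of B, C and D, whereas the D2 means lay between 34.2 and 38.5 CPM. The values within letters, here and for the other receptors, include the D1 libraries that stand apart, which belong to letters B and D.

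Rora missed the threshold by a small margin, with a difference of -0.071 ± 0.027 (SE) and an adjusted p of 0.0521. Leaving out the 3 libraries gave -0.072, which passed (adjusted p 0.0463), and without letter A it was -0.13 (adjusted p 0.000455). Within letters it was 0.079 for A and -0.088, -0.19 and -0.10 for B, C and D. For both ROR genes the mean of log2 CPM was thus lower in D1 than in D2 neurons in letters B, C and D but not in A.

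The Nr1d1 level showed no called difference between the cell types (-0.13 ± 0.067, SE, adjusted p 0.176; -0.097 without the 3 libraries), and the letters disagreed, with -0.41 for A, -0.18 for B, 0.19 for C and 0.039 for D. Without letter C it was -0.22 and passed (adjusted p 0.0412). Nr1d2 differed by 0.0058 ± 0.026 (SE; adjusted p 0.891), with a 95% interval from -0.047 to 0.058, and by 0.035 without the 3 libraries (adjusted p 0.340).

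**Figure D5:**
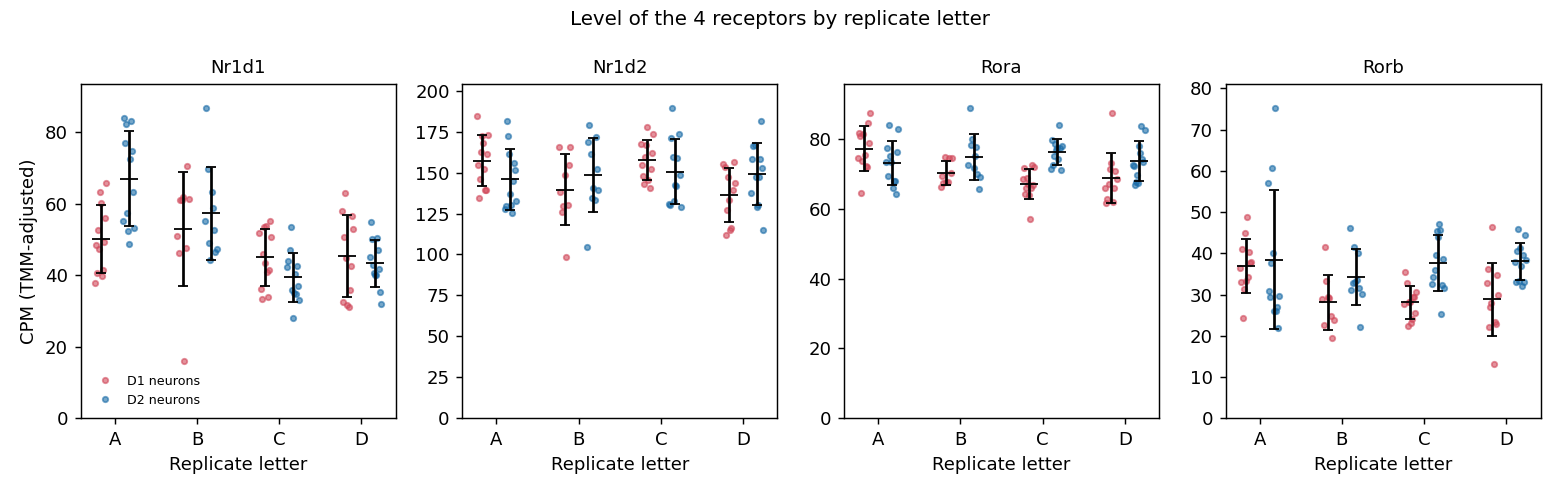
Mean CPM with SD of each receptor by letter in D1 and D2 neurons, with 1 point per library. Nr1d1 in D2 neurons is highest in letter A and lowest in C, Rorb in D1 neurons is highest in letter A, and Nr1d2 is level across the D2 letters.

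The letter mattered most for Nr1d1 in D2 neurons. It averaged 67.0 ± 13.4 CPM in letter A (SD, n = 12), 57.3 ± 13.1 in B (SD, n = 10), 39.4 ± 6.91 in C and 43.4 ± 6.58 in D (SD, n = 12 each). Its paralog Nr1d2 lay between 145.9 and 150.6 CPM in the same 4 sets. The letters also differ in depth: D2 libraries of letter A held 19727033 counts on average and those of letter D 10904585. With the logarithm of the library's total as a covariate the D2 rhythm of Nr1d1 was 0.27 (adjusted p 0.000345). Within single letters the Nr1d1 amplitude in D2 neurons was 0.37, 0.34, 0.23 and 0.27 for A to D. What the letters stand for is not given in the labels, and the part of depth in the letter differences was not tested.

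Male and female means differed by no called amount for any of the 4 receptors in the unblocked edgeR fits, where 0.0418% of genes in D1 and 0.216% in D2 neurons were called. DESeq2 and limma called no receptor either, although DESeq2 gave no adjusted p for Nr1d1 and Rorb in D1 neurons. The largest in D1 neurons was Nr1d2, at 142.2 ± 21.1 CPM in males (n = 22) and 154.0 ± 14.1 CPM in females (SD, n = 23), a male minus female difference of -0.11 ± 0.044 (SE) with an unadjusted p of 0.0147 and an adjusted p of 0.241. Omitting the 3 libraries, all male, gave -0.066 (adjusted p 0.688). The differences in D1 neurons were -0.067 for Nr1d1, -0.053 for Rora and -0.045 for Rorb with all libraries, and -0.011, -0.068 and 0.016 without the 3. The largest in D2 neurons was that of Rorb, at 39.3 ± 8.00 CPM in males and 35.1 ± 11.3 CPM in females (SD, n = 23 each), a difference of 0.15 ± 0.096 (SE, adjusted p 0.926). Nr1d1 in D2 neurons averaged 53.8 ± 15.9 CPM in males and 49.3 ± 14.2 CPM in females (SD, n = 23 each), a difference of 0.13 ± 0.10 (SE, adjusted p 0.926). With the letter as a block, which called 9.45% of all genes, this was 0.13 with an adjusted p of 0.0394. No other receptor was called with the block in D2 neurons.

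Likeness of pattern was measured as Pearson's r over the 24 group means of log2(CPM + 1). The highest values among all genes and receptors were for Rorb, with ENSMUSG00000070348 (r = 0.92) and ENSMUSG00000039116 (r = 0.91). For Nr1d1 and Nr1d2 the highest r was 0.87 and 0.85, and for Rora 0.81. An r above 0.8 was reached by 12 genes for Rorb, by 3 each for Nr1d1 and Nr1d2 and by 1 for Rora. The group means share letters, so these values are descriptions.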

How the data were processed

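The authors deposited unnormalised whole-number read counts of 14355 Ensembl identifiers in 91 libraries. Per the labels' protocols, ribosomes tagged with hemagglutinin were pulled down from nucleus accumbens punches pooled from 2 mice. Per the submitters' processing notes, the tools were HTSeq 0.10.0, FastQC 0.11.7 and HISAT2, for which no version was given in the sources used here. Builds GRCm38 and GRCh38 are named there without their roles. Genes had passed the authors' filter on log CPM, per the name of the deposited table, at a threshold not given in the sources used here.

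Tests used edgeR 4.0.16 in R 4.3.3, with TMM factors, quasi-likelihood F-tests and Benjamini-Hochberg adjustment over all 14355 genes (threshold 0.05). Each sex of a cell type had its own mean, cosine and sine for a 24 h period. The rhythm test takes both terms jointly (2 degrees of freedom), in the D1 libraries, in the D2 libraries and, for differences between them, in all 91. The fitted amplitude cannot be negative, so 95% intervals are given by their upper end. That end is the amplitude plus a multiple of its SE, which is approximate where the amplitude is close to or below its SE. CPM was calculated here from the counts as deposited. Alternatives used DESeq2 1.42.0, limma 3.58.1 and the settings listed at the end. The test script was tested on simulated counts.

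The replicate letter paired D2 libraries, where all of 243 same-letter pairs had deviations from group means that correlated above 0.1 (median 0.74, lowest 0.22). In D1 neurons 70.0% of 223 pairs did (lowest -0.63) and across cell types 74.7% of 510, so letters were not taken as pairs there. No 2 libraries of a group were copies: over 129 pairs the mean chi-square per gene was at least 4.24, where sampling noise gives 1. Nothing in the labels says that libraries within a group come from separate animals, and p-values then measure the spread between these libraries.

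The 4 receptors and the lists were chosen with earlier results of these data known. The rule for named genes was to describe all 4 whatever their values and, by likeness, to print only the 2 identifiers of highest r where no table names them. The RefSeq table has 49997 genes, 0 of them with an Ensembl identifier. The lists of clock genes, REV-ERB cofactors and targets, and cell type markers could therefore not be scored. The 4 receptors were matched to RefSeq by symbol.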

Additional observations from a re-analysis of the deposited data

Results flagged for a closer look

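In 5 of 48 sets of libraries of 1 gene, cell type and time, the lowest or highest library lay farther from the others than Dixon's 95% limit allows, where chance flags about 1 in 20 sets. Nr1d1 was at 16.1 CPM in the D1 male ZT22 library of letter B, against 33.4 to 46.1 CPM in the other libraries of that time. Nr1d2 was at 115.1 CPM in the D1 male ZT18 library of letter D, against 145.3 to 154.4 CPM in the others. Both libraries are among the 3 that stand apart by their genes at 0, and the rhythm results are given without them in the report. Nr1d2 was at 104.5 CPM in the D2 male ZT2 library of letter B, against 127.7 to 142.5 CPM. In the D2 female ZT22 library of letter D, which has the lowest total of all libraries, Nr1d2 was at 115.1 CPM, against 129.2 to 139.4 CPM. Rorb was at 75.2 CPM in the D2 female ZT6 library of letter A, against 30.9 to 45.6 CPM.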

How the results depend on the processing

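The 48 results for the 4 receptors were recomputed under 718 alternative values, of which 655 stayed on their side of the threshold with their direction, 15 lost a call, 29 gained one and 19 turned direction without a call on either side. None reversed a called direction. The rhythm of Nr1d2 in D1 neurons gave amplitudes of 0.15 to 0.18 with 1 letter left out (lost without A, B or C). With time as a factor of 6 levels it gave 0.16 and was lost (adjusted p 0.219 in edgeR). That of Nr1d1 in D2 neurons gave 0.27 to 0.32 with 1 letter left out (lost each time). With time as a factor it gave 0.27 and was lost (adjusted p 0.535 in edgeR). That of Nr1d2 in female D2 neurons gave 0.15 to 0.19 with 1 letter left out (lost without A, C or D) and 0.20 with time as a factor. This female rhythm was called in 10 of 14 alternatives, so it was also lost in an alternative other than these left-out letters. The time factor spends 5 degrees of freedom on a shape that the cosine describes with 2. Its value is the range of the 6 fitted times divided by 2, not a cosine amplitude. With the replicate block (the pairing by letter) calls were gained for Nr1d1 in male (0.35) and female (0.23) D2 rhythm and for its sex level in D2 neurons (0.13), for Nr1d2 in male D1 rhythm (0.18) and its sex level in D1 neurons (-0.12), and for the Rora cell type level (-0.074). A block within each cell type gained the Nr1d2 rhythm difference (0.12). The replicate block changed no other call. DESeq2 gained male D1 rhythms of Nr1d1 (0.39) and Nr1d2 (0.19), limma voom with quality weights gained female D1 rhythms of Nr1d1 (0.41) and Nr1d2 (0.15) and the male D2 rhythm of Nr1d1 (0.27). Voom called 2524 of 14355 genes rhythmic in female D1 and 4357 in male D2 neurons. Library size as a covariate gained male rhythms of Nr1d1 in D1 (0.41) and D2 (0.31) and of Nr1d2 in D1 (0.20), and a fit of all libraries gained the last (0.19). Without the 3 libraries and with the block, calls were gained for Nr1d2 in male D1 (0.16) and for Nr1d1 (0.33) and Nr1d2 (0.15) in female D1 rhythm. The Rora level difference passed with DESeq2 (-0.073), voom (-0.10), RLE factors (-0.073), limma at pseudocounts of 1 (-0.072) and 0.1 (-0.072), library size (-0.071), and without the 3 libraries (-0.072; -0.077 with the block). With 1 letter left out it ran from -0.13 to -0.019. Under the same omissions the level difference of Rorb ran from -0.37 to -0.19 and that of Nr1d1 from -0.22 to -0.012. The count of rhythmic genes in D1 neurons, 71, ran from 13 to 717 over the alternatives, and that in D2 neurons, 422, from 55 to 3198. Causes of these changes were not tested.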
